A study of Arabidopsis thaliana with 14 samples.

Results

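The genes described here are the mature-only genes of an Arabidopsis thaliana embryo series, 218 of the 25414 named genes in the table. They were selected on their measured values. A member had a mean of 1000 or more over the mature libraries, and that mean was 10 or more times the sum of 4 and its highest mean at any earlier stage. Values are reads per 20000000 reads of a library. A list of 23 loci, mostly well-known late embryogenesis abundant (LEA) and heat shock genes, was left out, and 21 of them met both thresholds, so that 239 genes met them with none left out. RNA came from whole embryos of the ecotype Col-0, with no mutant, transgene or treatment, at the zygote, octant, globular, heart, torpedo, bent and mature stages. Each of the 7 stages had 2 biological replicates, and the 14 libraries held 6078186 to 30803336 reads.

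The mature embryo is the dry, resting plant of the ripe seed. During seed maturation the hormone abscisic acid accumulates, storage reserves are laid down, chlorophyll is broken down and the tissue finally loses most of its water. LEA proteins, small heat shock proteins and antioxidants are known to protect membranes and proteins in the dry state, and much messenger RNA is stored in the dry seed. Abscisic acid binds PYR/PYL receptors, which then inhibit the clade A phosphatases 2C, so that SnRK2 kinases can activate bZIP factors such as ABI5. Those factors bind ACGTG-containing elements in promoters, while B3 factors such as ABI3 bind the RY motif, CATGCA.

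Contrary to the working description of the group as lying outside the LEA and heat shock genes, both kinds were still among the members. The member with the highest mature mean was HSP17.4 (AT3G46230), a cytosolic small heat shock protein, and 13 members were heat shock proteins or chaperones. Of 49 LEA loci of a family list that were in the table, 11 were members and 11 more were among the loci left out. A further 9 members outside that list were annotated as LEA, seed maturation or drying-associated proteins, which made 20 in that role. The members are therefore called mature-only genes for the rule alone, with no limit on their function. The name does not mean absence before maturity. A stage mean of 100 or more was reached by 102 members at the bent stage and by 61 at the zygote stage.

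Promoters of 5 members are shown because they span what the group held upstream, from several abscisic acid type elements to none of them. AtLEA4-1 and HVA22B had the highest mature means among the LEA and drying-associated members, HSP17.4 the highest of all members, and LCR67 and AT1G17010 were among the members with the highest ratios. Each line gives the 150 bases before the annotated transcript start, 5′ to 3′ on the strand of the gene, cut from the RefSeq genome, build TAIR10.1. Capitals mark the abscisic acid element core ACGTG, the RY core CATGCA and the heat shock element core GAANNTTC, each read on either strand. The AtLEA4-1 stretch is chr1:11774334-11774483 (plus strand), that of HVA22B is chr5:25089941-25090090 (plus strand), and that of HSP17.4 is chr3:16984868-16985017 (minus strand). The LCR67 stretch is chr1:28472207-28472356 and that of AT1G17010 is chr1:5817417-5817566, both on the plus strand.
AtLEA4-1: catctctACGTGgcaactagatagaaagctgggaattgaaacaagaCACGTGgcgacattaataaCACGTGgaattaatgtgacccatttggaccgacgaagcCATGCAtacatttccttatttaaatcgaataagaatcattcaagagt
HVA22B: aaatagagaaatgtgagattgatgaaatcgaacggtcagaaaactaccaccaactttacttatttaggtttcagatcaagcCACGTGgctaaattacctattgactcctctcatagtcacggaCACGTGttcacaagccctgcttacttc
HSP17.4: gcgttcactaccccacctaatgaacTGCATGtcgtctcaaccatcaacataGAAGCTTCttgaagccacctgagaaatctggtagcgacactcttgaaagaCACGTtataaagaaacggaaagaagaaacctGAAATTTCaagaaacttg
LCR67: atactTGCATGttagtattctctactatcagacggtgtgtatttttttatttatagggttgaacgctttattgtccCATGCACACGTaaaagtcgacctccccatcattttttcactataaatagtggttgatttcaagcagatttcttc
AT1G17010: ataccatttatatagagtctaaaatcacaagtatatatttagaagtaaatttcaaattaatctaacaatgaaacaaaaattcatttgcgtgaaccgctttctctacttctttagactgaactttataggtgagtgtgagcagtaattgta
The AtLEA4-1 and HVA22B stretches each held 2 copies of CACGTG, the G-box. HSP17.4 held 2 copies of GAANNTTC and LCR67 2 of the RY core. The AT1G17010 stretch, from the member with the highest ratio of all, held none of the marked motifs.

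Members took 18.3% and 15.9% of the reads in named genes in the mature libraries. In the 12 earlier libraries they took between 0.0933% and 0.590%. The left-out loci took a further 14.7% and 13.7% of those reads in the mature libraries. Seed coat markers were near 0 in the mature libraries, with all 5 kept markers, BAN and MUM2 among them, below 10 in both and summed values of 4.69 and 6.85. Of 12 endosperm markers 3 were at 0 and 9 were below 10 in both mature libraries, and the sums of 404 and 339 were mostly EPR1, with 377 and 310.1. Since whole embryos were measured, changes in the number of cells of a type and in RNA per cell cannot be told apart for the members.

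**Figure D1:**
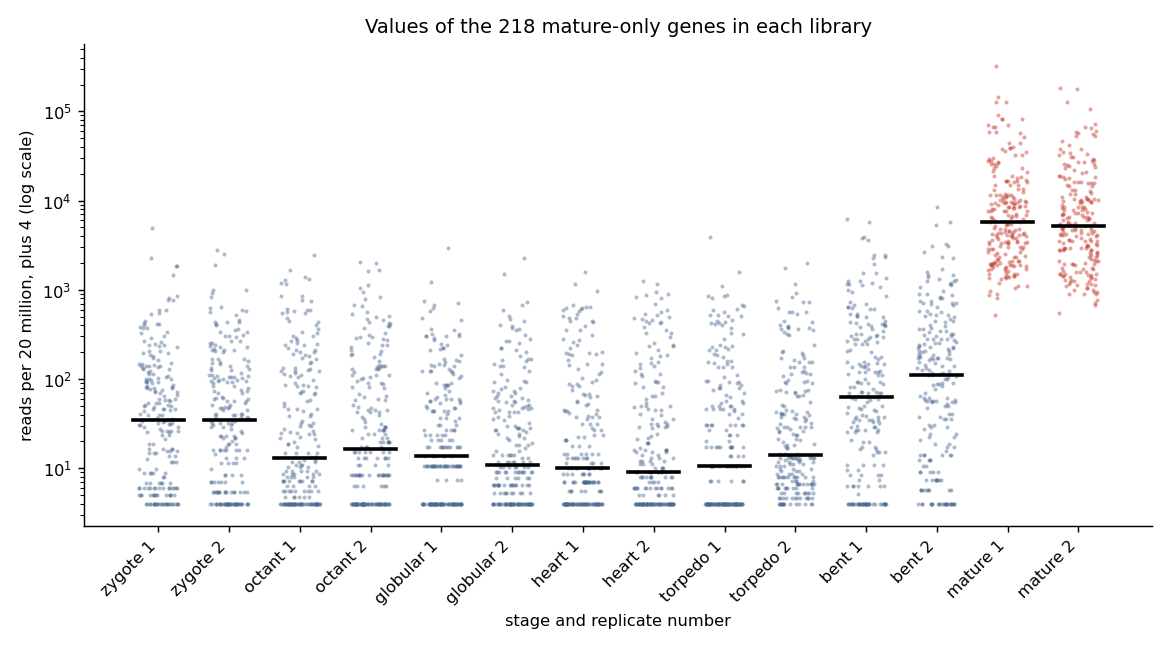
Values of the 218 mature-only genes in each library, as reads per 20000000 plus 4 on a log axis, with libraries in stage order. Each point is a gene and each bar the median. The rule selected the genes on the mature values (red), with medians of 5770.0 and 5152, set against the earlier ones. The medians of the zygote libraries were 30.6 and 30.9, and those of the bent libraries 59.6 and 107.

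The mature means ran from 1014 to 253703, with a median of 5462. The ratio of the mature mean to the highest earlier mean plus 4 had a median of 29.9 and a highest value of 3109. It was 100 or more in 54 members and under 20 in 80. Just inside the threshold on the mature mean lay AT1G67920 with 1014, AT5G41800 with 1031 and AT3G12955 with 1059. Just outside lay UGT85A1 with 909, OMTF3 with 904 and PROPEP5 with 899. Just inside the threshold on the ratio lay Fes1A and NET3A at 10.1 and AT5G05230 at 10.2, and just outside it AT2G19930 at 9.97, DIP2 at 9.95 and AT1G50290 at 9.92. The number of members depended on scaling between libraries, since TMM factors gave 338 genes in place of 218, all 218 among them.

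Both mature libraries met the rule on their own for 174 members. Their values lay within 2-fold of each other for 177 members, with a median fold of 1.38 and a highest of 4.38. Replicate 1 was the higher for 136 members and replicate 2 for 82. Only 2 libraries stood behind each stage mean. Contrasts with the mature stage are given as a description with no test, since the rule chose the genes on mature values set against earlier ones.

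The 12 members with the highest mature means held 37.8% of the summed mature means of all 218. HSP17.4 had 323791 and 183616 in the mature libraries, against a lowest value of 5.62, a median of 73.6 and a highest of 521 in the 12 earlier libraries. Its transcript at chr3:16984118-16984867, build TAIR10.1, overlaps the genes AT3G46220 and AT3G07365, and reads in the shared stretch could not be assigned by strand. AT4G11310, annotated as a papain family cysteine protease, had 128926 and 176873 in the mature libraries, against 1.94, 8.38 and 123 as the lowest, median and highest earlier values. This protease gene was thus abundant at the mature stage and close to the floor of detection in several earlier libraries.

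AtLEA4-1 (AT1G32560), a LEA protein of family 4, had 145144 and 127135 in the mature libraries, against 0, 229 and 5821 as the lowest, median and highest of the earlier ones. The glycine-rich protein gene AT2G05580 had 127401 and 52438 in the mature libraries, against 0, 52.5 and 8579. GRXC1 (AT5G63030), a glutaredoxin that reduces protein disulfides with glutathione, had 81839.8 and 71552 in the mature libraries, against 114, 804 and 2630.0. GRXC1 was the member of these 5 with the highest floor, and every earlier library held it above 100. HVA22B (AT5G62490), a homologue of an abscisic acid-induced barley protein, had 44754 and 106827 in the mature libraries, against 0, 31.4 and 1598.

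Several of the most abundant members have little or no known function. AT3G15280, an uncharacterized protein, had 81938 and 65279 in the mature libraries, against 1.51, 82.1 and 443 as the lowest, median and highest earlier values. AT5G01300, of the phosphatidylethanolamine-binding protein family, had 90366 and 52718 in the mature libraries, against 10.8, 155 and 6170.1. The seed maturation protein gene AT2G21820 had 58185 and 66765 in the mature libraries, against 1.51, 44.8 and 1286. These values put all 3 genes lower in every earlier library than in either mature one, as for each gene described above.
AT5G07330, annotated as an NFU1 iron-sulfur cluster protein, had 58518 and 59145 in the mature libraries, against 2.25, 14.5 and 3888 in the earlier ones. AT1G19530 had 69893 and 46992 in the mature libraries, against 0, 7.92 and 136. The uncharacterized gene AT1G16850 had 82849 and 33675 in the mature libraries, against 1.00, 16.6 and 572. Per kilobase of transcript the order of the leading members was HSP17.4 (350419 reads per 20000000 per kb), AtLEA4-1 (158486) and LCR67 (116829), a short defensin transcript.

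A further set of 6 members stood out by ratio rather than by level. AT1G17010, a 2-oxoglutarate and iron-dependent oxygenase, had 57628 and 31052 in the mature libraries, against 0, 3.13 and 11.8 as the lowest, median and highest earlier values, a ratio of 3109. LCR67 (AT1G75830), a plant defensin, had 71037 and 30604 in the mature libraries, against 0, 3.55 and 26.5, a ratio of 2201. The cytochrome P450 gene CYP76C7 (AT3G61040) had 9454 and 7907 in the mature libraries, and its 12 earlier libraries together held 5 reads, a ratio of 1638. All of these genes were near absent before maturity and abundant in both mature libraries.
UPS4 (AT2G03520), a ureide permease, had 8526 and 18933 in the mature libraries, against at most 6.58 in an earlier one, a ratio of 1603. The phosphatase 2C gene AT2G34740 had 7583 and 8447 in the mature libraries, and its earlier libraries also held 5 reads in all, a ratio of 1513. The protease gene AT4G11310, described above, had a ratio of 2263 and made the sixth. Of all members 18 lay below 10 in every earlier library. In 2 of them no read was seen in the 190707430 reads of the 12 earlier libraries, namely AT1G14930 and PYL13. Against a floor of 3 reads over those libraries pooled, AT1G14930, a major latex-like protein gene, was at least 5303-fold higher at the mature stage and PYL13 at least 3920.1-fold higher. Those bounds cover counting error only.

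Among the members 86 carried a gene symbol of their own, and 34 were uncharacterized in the annotation. Roles were assigned by hand from the annotation. Drying-associated proteins made the largest named role after the mixed and uncharacterized ones, with 20 genes that took 2.74% and 3.34% of named-gene reads in the mature libraries. Their lowest mature mean was 1546 and their highest 136139.5. Examples are LEA7 with 50996 and 42274 in the mature libraries, against a highest earlier stage mean of 2858, and the dehydrin gene XERO1 with 29201 and 37852, against a highest earlier stage mean of 872. LTI65, known as an abscisic acid-induced gene of cold and drought responses, had 9266 and 13220.4 in the mature libraries, against 583 at the bent stage. M17 and AT3G22490 were below 10 at every earlier stage, with 1992 and 1930.1 for M17 in the mature libraries and 1855 and 2815 for AT3G22490.

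**Figure D2:**
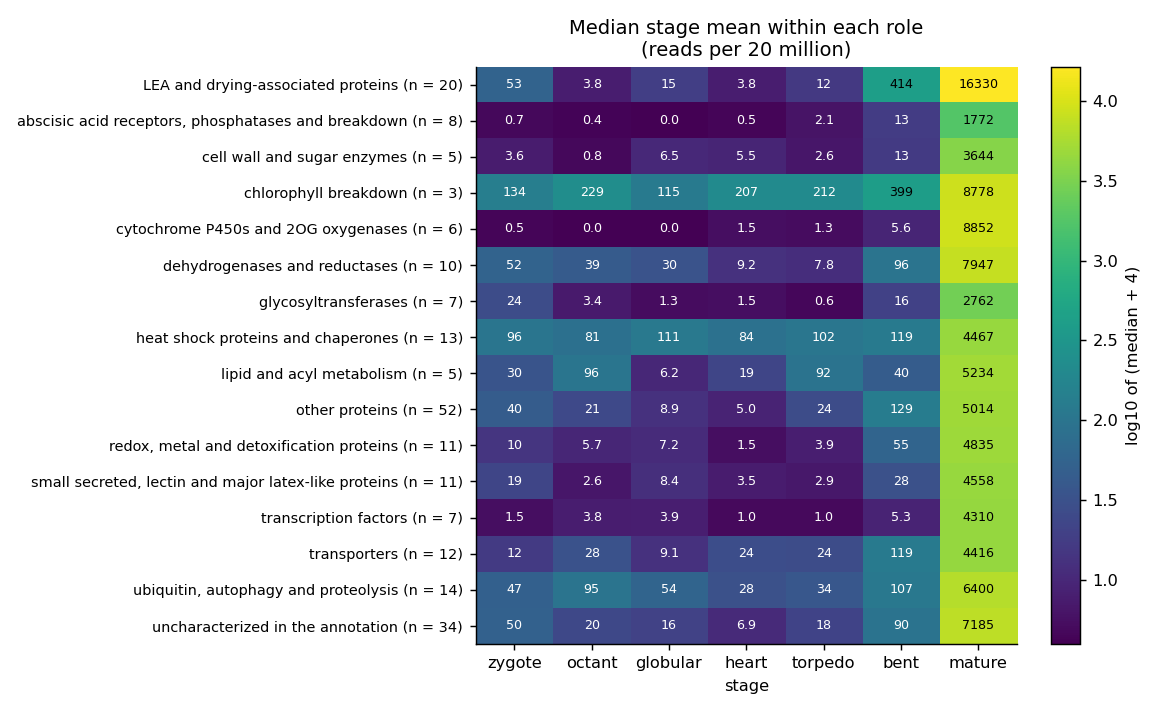
Median of the stage means within each role, in reads per 20000000, with the color on a log scale of the median plus 4 and stages in order from left to right. The LEA and drying-associated genes had medians of 53.2 at the zygote stage, 3.78 at octant and 414 at bent, while the heat shock proteins and chaperones stayed between 81.3 and 119 over the 6 earlier stages. The mature column is high because the rule chose it.

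The abscisic acid role held 8 members, namely 5 phosphatases 2C, 2 receptors and 1 hydroxylase. AHG1, a clade A phosphatase known from seeds as a negative regulator of abscisic acid responses and a partner of DOG1, had 8835 and 18504 in the mature libraries, against a lowest value of 0 and a highest of 72.9 in bent replicate 2. HAI2 had 2345 and 1379 in the mature libraries, against a highest earlier stage mean of 74.4 at the zygote stage. HAI3 had 1507 and 1057, and no earlier library exceeded 2.0. The other 6 clade A phosphatases in the table were not members. HAI1 had a mean of 1239 in mature embryos, against its highest stage mean of 7044 in bent ones, and AHG3 had 7117 in mature embryos, against its highest of 54429 in zygotes. Among the 9 clade A genes 4 were highest at the mature stage, namely the 3 members and HAB2.
The receptor genes PYL12 and PYL13 followed the same course as HAI3. PYL12 had 1987 and 1376 in the mature libraries, and the only earlier library with reads was bent replicate 2 with 13.3. PYL13 had 1915 and 552 in the mature libraries, 3.47-fold apart, with no read before. CYP707A2, which encodes an abscisic acid hydroxylase that breaks the hormone down, had 3396 and 1213 in the mature libraries and at most 30.3 earlier. The phosphatase 2C genes AT2G34740 and AT3G05640 lie outside the clade A list, and AT3G05640 had 1788 and 1452 in the mature libraries, against a highest earlier stage mean of 50.3 at bent. None of 12 listed seed regulators, bZIP and B3 factors with ABI4 and DOG1, was a member. ABI5 had 2129 and 1583 in the mature libraries, against a highest earlier stage mean of 281 at octant, which fell short of the ratio, and ABI3 had 1259 in mature embryos, against its highest mean of 4956 in bent ones.

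**Figure D3:**
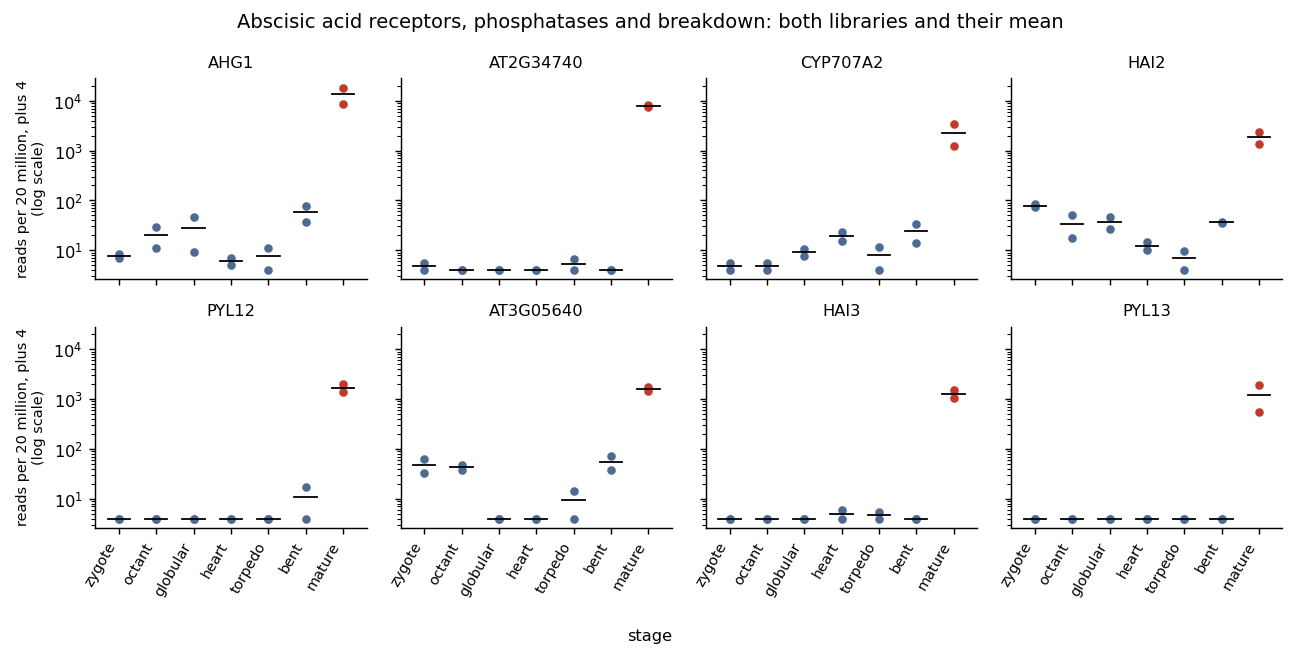
Both libraries (points) and their mean (bar) at each stage for the 8 members of the abscisic acid role, in reads per 20000000 plus 4 on a log axis. The mature libraries (red) run from 552 for PYL13 to 18504 for AHG1, and no earlier library of these genes exceeds 79.5, the value of HAI2 in zygote replicate 1.

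Transcription factors numbered 7, and 6 of them belong to the AP2/ERF family. AT1G75490, a DREB-type factor, had 14825 and 14554 in the mature libraries, against a highest earlier stage mean of 975 at bent. RAP2.6 had 1335 and 2477 in the mature libraries and at most 3.10 as an earlier stage mean, at octant. ABR1, a repressor of abscisic acid responses, had 1438 and 1002, and DREB19 1507 and 891, against earlier stage means of at most 3.93 for ABR1 and 11.6 for DREB19. WRKY32 had 23328 and 5328 in the mature libraries, the replicates with the largest gap of all members at 4.38-fold, and a mean of 849 at octant.

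Chlorophyll breakdown was represented by NYC1, a chlorophyll b reductase, NYE1, which removes magnesium from chlorophyll a, and the related STAY-GREEN-like gene AT4G11910. NYC1 had 27968 and 13147 in the mature libraries, against a highest earlier mean of 1797 at torpedo. NYE1 had 9340.0 and 7167 in the mature libraries, against 399 at bent. AT4G11910 had 7691 and 9865, against 294 at bent, and lay below 10 at every stage before. The first 2 were thus well above the detection floor throughout, while AT4G11910 was not.

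Redox and metal proteins made 11 members. MT2A, a metallothionein that binds copper and zinc, had 39172 and 27310.5 in the mature libraries, against stage means between 1199.8 and 2822 before. The seed metallothionein gene AtMT4a had 8903 and 6562, against a highest earlier mean of 54.9 at bent. FRO2, the ferric reductase known from iron uptake by roots, had 4590.2 and 5080.2, against earlier means of at most 14.6. FD4, a ferredoxin, had 6188 and 4022, against earlier means of at most 2.49.
Transporters made 12 members. CAT3, a cationic amino acid transporter, had 44329.7 and 38122 in the mature libraries, against a highest earlier mean of 899 at torpedo. NRT2.7, which loads nitrate into the vacuoles of seeds, had 15066 and 11086, against 468 at octant. NRT1.8 had 3872 and 5400.1, against 246 at bent.
Protein turnover accounted for 14 members, 7 of them RING-type ubiquitin ligase genes. The autophagy genes APG8H and ATG8H, which encode ubiquitin-like proteins of the autophagosome membrane, had 35437 and 27398 for APG8H and 4039.5 and 3197 for ATG8H in the mature libraries. The highest earlier means were 1228 at octant for APG8H and 89.5 at bent for ATG8H. Glycosyltransferases numbered 7, cytochrome P450s and oxygenases 6, and dehydrogenases and reductases 10, with mature means up to 50725 for AT1G19540.

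Small secreted and defence-type proteins numbered 11. GASA3, a cysteine-rich peptide of the gibberellin-stimulated family, had 39862 and 59599 in the mature libraries, against 631 at bent. The glycine-rich gene AT5G35660 had 16460.0 and 6619 in the mature libraries, against a highest earlier mean of 89.4 in zygotes. The 3 adjacent major latex-like genes AT1G14930, AT1G14940 and AT1G14950 were all members, with mature means of 1668, 1164 and 3072. PSY1, a tyrosine-sulfated growth peptide, had 4406 and 4709, against a highest earlier mean of 27.6.
Lipid and sugar enzymes were fewer, at 5 each. AAE3, an oxalyl-CoA synthetase, had 36234 and 14924 in the mature libraries, against 1645 at octant, and GolS2, which makes galactinol for the raffinose sugars, had 3669 and 3619, against 84.4 in zygotes. No lipid droplet protein gene of the list was a member. Of the 7 whose locus carries the listed symbol in the annotation, 1 was highest at the mature stage, and so were 3 of the 6 loci in the table whose symbol did not match, AT5G55240, AT5G16460 and AT2G47780.
Other heat shock members were HSP70T-2, with 13184 and 23090.2 in the mature libraries against a highest earlier mean of 692 at heart, and the small heat shock gene AT1G53540, with 13649 and 7888 against 88.9 in zygotes.

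The rule capped every earlier stage at the same fraction of the mature mean and did not use which of the 6 came next. In 101 members, 46.3%, the highest earlier stage was bent, against 12.4% of the other genes. Member shares are over all 218, while the other genes were limited to those with 10 or more in at least 2 of the 12 earlier libraries. The zygote came next with 44 members, 20.2%, against 15.3% of the other genes. Those 44 include AT1G14930 and PYL13, which had no earlier read and were put under the first stage by the tie. Octant held 33 members (15.1% against 22.5% of the other genes) and globular 8 (3.67% against 6.50%). Heart held 15 (6.88% against 14.2%) and torpedo 17 (7.80% against 29.2%). Medians of the members' stage means were 31.5 at the zygote stage, 11.2 at octant, 8.94 at globular, 5.90 at heart, 10.1 at torpedo and 87.0 at bent. A value of 100 or more in zygotes was found in 61 members, and 64 were higher in zygotes than in bent embryos. In 12 members both the zygote and the bent mean reached 100 while all stages between stayed below 100. The counts of 61, 64 and 12 have no share of the other genes beside them, so they mark no trait particular to the members.

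Whether the members changed between earlier stages was tested with limma on the 12 libraries before the mature stage, which played no part in the test. The rule had capped the earlier means of the members and not those of other genes. The tested values were therefore not independent of the selection, and member shares beside those of all genes are a description. A gene was tested if 2 of the 12 libraries held a value of 10 or more, which 190 members and 18519 genes in all did. The other 28 members were too low before maturity. Of the 190, 21 passed only through their bent libraries and 12 only through their zygote libraries, so a gene present at 1 stage alone had to differ there. Fold changes are on the scale of log2 of the value plus 4, which understates those of low genes, p-values were adjusted over all genes tested, and a gene was called at an adjusted p under 0.05.

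Bent embryos, the last stage before maturity, already held many of the members at a higher level than torpedo embryos. Of the 190 members tested 91 rose, 47.9%, beside 5.59% of all genes tested. One member fell, 0.526%, beside 23.8% of all genes, a share of all genes that was 10% with median centring, 9.87% with TMM and 11.1% without bent replicate 2. The median log2 change was 1.65 over the members and -0.55 over all genes tested. With each library centred on its median, the median change was 2.29 over members and 0.09 over all genes, 113 members were called higher, 59.5% beside 10% of all genes, and the members called lower numbered 0, also at an unadjusted p under 0.05 with limma. Without the filter on low values 79 of all 218 members were called higher, 36.2% beside 3.31% of 25414 genes. A fit of the torpedo and bent libraries alone called 0 of all genes higher after adjustment, members included, with 85 members and 1176 genes at an unadjusted p under 0.05. On the recovered reads edgeR called 108 members higher, beside 1778 genes in all, and DESeq2 99, beside 1980. The bent libraries themselves differed, with a median fold between them of 1.54 over the members and higher values in replicate 2 for 123 members and in replicate 1 for 77.

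**Figure D4:**
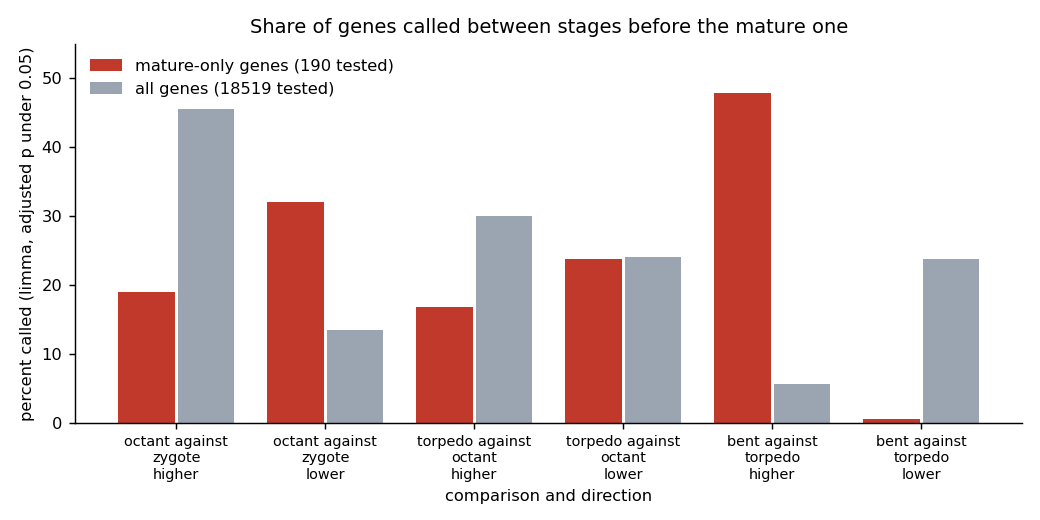
Percent of mature-only genes (red, 190 tested) and of all genes (grey, 18519 tested) called higher or lower in 3 comparisons of earlier stages, with limma at an adjusted p under 0.05. The members stand above all genes for bent against torpedo, higher (47.9% and 5.59%), and octant against zygote, lower (32.1% and 13.5%).

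The 5 largest called changes in bent against torpedo embryos, among members whose libraries did not overlap, were all increases. AT2G05580, the glycine-rich gene, had 3632 and 8579 in bent embryos, against 0 and 9.09 in torpedo ones (log2 change 9.59, SE 0.74, limma adjusted p = 1.13e-06). The uncharacterized gene AT1G07985 had 1538 and 1685 in bent embryos, against 0 and 5.19 in torpedo ones (log2 change 8.06, SE 0.53, limma adjusted p = 2.58e-07). LEA4-5 (AT5G06760), a LEA protein of family 4, had 2449.6 and 1254 in bent embryos, against 0 and 27.9 in torpedo ones (log2 change 7.28, SE 0.73, limma adjusted p = 8.86e-06). All 3 were thus near absent from torpedo embryos and present in both bent libraries.
AT3G56350, an iron/manganese superoxide dismutase that removes superoxide, had 171 and 3072 in bent embryos, against 0 and 2.6 in torpedo ones (log2 change 7.16, SE 0.89, limma adjusted p = 5.74e-05). Its bent libraries differed widely from each other and did not overlap those of torpedo. AT5G07330 had 3888 and 2343 in bent embryos, against 13.1 and 24.7 in torpedo ones (log2 change 7.09, SE 0.56, limma adjusted p = 1.34e-06).

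The rise at the bent stage was uneven across roles. Beside the counts by role, 5.59% of all genes tested were called higher. LEA and drying-associated genes had 14 of 17 tested members higher in bent than in torpedo embryos, with a median log2 change of 3.94, HVA22B among them (262 and 1598 in bent embryos, against 0 and 29.9 in torpedo ones, log2 change 5.81, SE 0.87, limma adjusted p = 2.49e-04). Of the 8 abscisic acid members 4 passed the filter and all 4 rose, namely AHG1 (log2 change 3.01, SE 0.74, limma adjusted p = 0.00742), AT3G05640 (2.76), HAI2 (2.54) and CYP707A2 (1.67). HAI3, PYL12, PYL13 and AT2G34740 were too low before maturity to be tested. Redox and metal genes rose in 6 of 10, with GRXC1 at 930.4 and 2630.0 in bent embryos, against 134 and 114 in torpedo ones. Of the heat shock proteins and chaperones 2 of 13 were called higher, HSA32 and the DnaJ-like gene AT5G43260, and the median log2 change of that role was -0.20. HSP17.4 itself had 5.62 and 215 in bent embryos, against 6.56 and 39.0 in torpedo ones (log2 change 1.11, SE 1.13, limma adjusted p = 0.504). AT4G11310 and LCR67, both among the members with the highest ratios, were not called either, with log2 changes of 0.31 (SE 0.89, limma adjusted p = 0.851) and -0.61 (SE 0.59, limma adjusted p = 0.485). Transporters rose in 4 of 10, turnover genes in 5 of 13, and uncharacterized genes in 14 of 33. Whether roles differed from each other was not tested. The member called lower was AT1G07473, with 5.56 ± 1.51 in bent embryos and 20.9 ± 1.69 in torpedo ones (SD, n = 2 each, log2 change -1.39, SE 0.49, limma adjusted p = 0.0466). Neither edgeR nor DESeq2 made that call, nor did limma with either other pseudocount, without the filter, with TMM scaling or with median centring.

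Fixed lists of related genes that are not limited to members gave the following in the same comparison. Of the LEA family 16 of 41 tested genes rose and 6 fell, of the clade A phosphatases 5 of 8 rose and 1 fell, and of the lipid droplet genes with a matching symbol 7 of 7 rose. The 6 lipid droplet loci without a matching symbol were not counted there. Their means were higher in bent than in torpedo embryos for 3 of them and lower for 3, and AT3G05500 had a mean of 11524 in bent embryos, against 21906 in torpedo ones. Among the 12 seed regulators, bZIP and B3 factors with ABI4 and DOG1, 3 rose and 1 fell. Those that rose were ABI5, BZIP67 and DOG1. The clade A gene that fell in bent embryos was ABI1 (log2 change -1.34, SE 0.46, limma adjusted p = 0.0404).

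Earlier, between zygote and octant, members went down more often and up less often than genes at large. Of the 190 tested 61 fell, 32.1%, beside 13.5% of all genes, and 36 rose, 18.9%, beside 45.6% of all genes. The median log2 change was -0.40 over members and 0.95 over all genes, so scaling mattered here. With each library centred on its median, 102 members fell and 15 rose, 53.7% and 7.89%, beside 29.6% and 22.0% of all genes. Since 12 members passed the filter only through their zygote libraries, all 218 were also tested without it, and 52 fell, 23.9% beside 8.79% of 25414 genes, while 35 rose, 16.1% beside 31.4%. LEA and drying-associated genes fell in 12 of 17, and small secreted proteins in 5 of 8, heat shock proteins and chaperones in 6 of 13. Transporters instead rose in 6 of 10 and fell in 1. After median centring 3 transporters rose and 3 fell. Summed seed coat markers were high in these libraries, at 15783 and 16447 in octant and 5175 and 3651 in zygote. BAN made most of the octant sums, with 12878 and 13519. Of the 5 kept markers 3 were called higher in octant embryos, while INO and MUM2 had lower means there and were not called. After median centring 2 markers were higher and 2 lower. The part of these markers in the result was not tested.

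DSI-1VOC (AT1G07645), a desiccation-induced protein, had 2.32 and 4.50 in octant embryos, against 795 and 818 in zygotes (log2 change -6.79, SE 0.63, limma adjusted p = 3.39e-06). AT2G05580 had 10.8 and 4.50 in octant embryos, against 1852 and 329 in zygotes (log2 change -6.13, SE 0.74, limma adjusted p = 1.51e-05). AtLEA4-1 had 0 and 6.76 in octant embryos, against 395 and 405 in zygotes (log2 change -5.94, SE 0.46, limma adjusted p = 2.41e-06). In these 3 genes every zygote library lay far above both octant libraries, which held next to none.
AT4G18650, annotated as transcription factor-like, had 2.32 and 2.25 in octant embryos, against 142 and 164 in zygotes (log2 change -4.64, SE 0.64, limma adjusted p = 3.89e-05). UMAMIT8 (AT4G16620), of a family of amino acid exporters, went the other way, with 281 and 137 in octant embryos, against 0.970 and 1.47 in zygotes (log2 change 5.27, SE 0.54, limma adjusted p = 5.43e-06).

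Torpedo against octant embryos gave a mixed picture. Of the 190 tested members 32 rose, 16.8%, beside 30.0% of all genes, and 45 fell, 23.7%, beside 24.0% of all genes. With median centring 24 rose and 59 fell, 12.6% and 31.1%, beside 22.5% and 31.9% of all genes. LEA and drying-associated genes rose in 6 of 17 and fell in 1, while turnover genes rose in 1 of 13 and fell in 6. AtLEA4-1 had 518 and 404 in torpedo embryos, against 0 and 6.76 in octant ones (log2 change 6.14, SE 0.46, limma adjusted p = 1.04e-07). AT5G01300 had 859 and 565 in torpedo embryos, against 10.8 and 22.5 in octant ones (log2 change 5.14, SE 0.58, limma adjusted p = 4.42e-06). Both genes rose again at the bent stage, AtLEA4-1 to a mean of 5787 in bent embryos, against 461 in torpedo ones, and AT5G01300 to 5721 in bent embryos, against 712 in torpedo ones.
AT1G19540, a reductase-like gene, had 0 and 9.09 in torpedo embryos, against 609.8 and 417 in octant ones (log2 change -6.13, SE 0.56, limma adjusted p = 6.32e-07). AIRP2 (AT5G01520), a RING-type ubiquitin ligase known from abscisic acid responses, had 9.84 and 10.4 in torpedo embryos, against 549 and 450.4 in octant ones (log2 change -5.15, SE 0.59, limma adjusted p = 5.20e-06). The glycosyltransferase gene AT2G18570 had 0 and 1.30 in torpedo embryos, against 81.2 and 108 in octant ones (log2 change -4.41, SE 0.90, limma adjusted p = 8.18e-04). Octant libraries also held the higher seed coat sums, at 68.9 and 103 in torpedo embryos against 15783 and 16447 in octant ones, and their part in these decreases was not tested.

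The rule used no sequence, and promoters could be compared with those of other genes. In the window from 250 bases before to 50 after the transcript start, read on both strands, ACGTG was found in 118 of 218 members, 54.1% (95% Wilson interval 47.5 to 60.6), and in 26.6% of the 24704 other genes. CACGTG, which contains ACGTG, was found in 57 members, 26.1% (20.8 to 32.4), and in 7.55% of other genes. The RY core CATGCA was found in 39 members, 17.9% (13.4 to 23.5), and in 9.74% of other genes. GAANNTTC was found in 23 members, 10.6%, and in 11.5% of other genes, and TATAAA in 114, 52.3%, and in 52.7%. The intervals cover counting only, and neighbouring or related genes can share sequence, so the shares are given as a description. In the window of 150 bases shown above for 5 genes, ACGTG was found in 40.8% of members and 16.4% of other genes, and CACGTG in 17.0% and 4.73%.

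**Figure D5:**
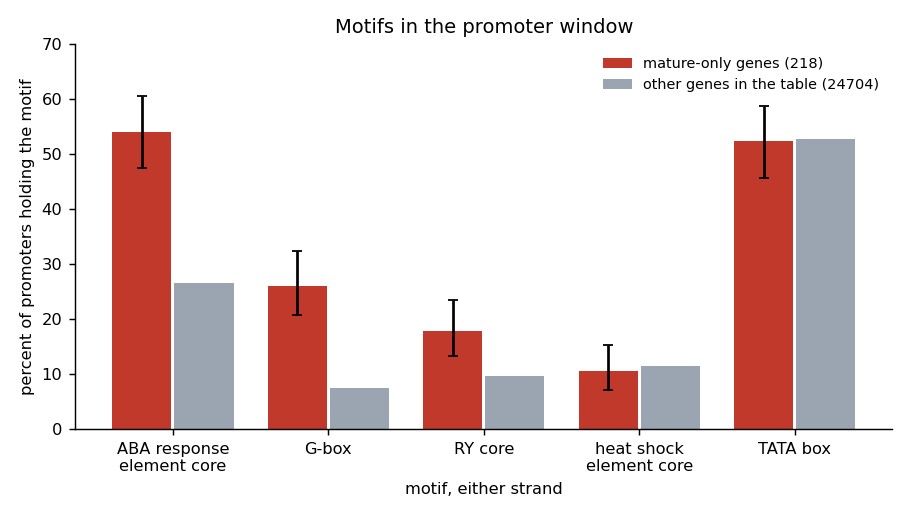
Percent of promoters, from 250 bases before to 50 after the transcript start, that hold each motif on either strand, for mature-only genes (red) and the other genes in the table (grey). Error bars are 95% Wilson intervals for counting. The element core of abscisic acid responses was held by 54.1% of members and 26.6% of other genes, and the TATA box by 52.3% and 52.7%.

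By role, ACGTG was found in 19 of 20 LEA and drying-associated promoters, and 15 of them held CACGTG. It was found in 6 of 7 transcription factor promoters, 4 of 8 in the abscisic acid role and 3 of 12 transporter promoters. GAANNTTC was found in 5 of the 13 heat shock and chaperone promoters. AT1G17010, CYP76C7 and the other P450 and oxygenase genes held ACGTG in 4 of 6 promoters and CACGTG in none of these.

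In structure the members encoded shorter proteins than genes at large, with a median of 270.0 residues against 351 over the 24923 protein-coding genes in the table. Proteins under 150 residues made 24.3% of members and 15.1% of all. Single-exon genes were 20.6% of members and 21.2% of all. Chromosome 3 held 13.8% of members and 20% of all genes, and the other 4 chromosomes differed by less. Members formed 8 neighbouring pairs with 15 genes among them. HVA22B and the glutathione transferase gene GSTU9 lie head to head with 464 bases between them on chromosome 5, with mature means of 75791 and 1301. AT1G19530 and AT1G19540 lie 603 bases apart on chromosome 1, with mature means of 58443 and 50725. Of the members 59 overlap another annotated gene. Over 10% of their 50-base words were shared with another gene by 25 members, HSP17.4 among them, so the values of these 25 are uncertain. Only 2 of them, AT4G34881 and AT2G36770, shared over 10% with a gene elsewhere.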

How the data were processed

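Arabidopsis embryos of 7 stages were measured by RNA-seq in 2 biological replicates each, grouped by the stage in the labels. Extraction used the RNAqueous-Micro kit, amplification the MessageAmp kit and library preparation the TruSeq RNA kit, per the labels' protocols, and that kit keeps no strand information. STAR, HTSeq, DESeq2, Trimmomatic, FastQC, CASAVA and build TAIR10 appear in the submitters' processing notes, with roles and versions not given in the sources. What the authors deposited is 1 table of normalised signal, made from read counts. Each library summed to 20000000 over all entries, those without a gene identifier included, which held 9.15% to 26.3% of reads. Whole reads were recovered for 100.0% of values within 0.001 reads, at a value of 0.649 to 3.29 for 1 read.

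Members and gene lists were chosen with earlier results of these data known, and roles were assigned by hand from the annotation. Genes given with values in the libraries are the 12 with the highest mature mean, the 6 with the highest ratio and, per comparison, the 5 largest called changes without overlap, and other members stand as examples of their role. log2 of the value plus 4 went into limma 3.58.1 (R 4.3.3), modelling stage alone, with a trended prior variance (6 residual and 8.68 prior degrees of freedom), after leaving out 6895 genes that reached 10 in fewer than 2 of 12 libraries. Benjamini-Hochberg adjustment covered all genes tested. The mature libraries stayed out of the fit. The design had assumed that the table could hold raw counts, which it did not. The fit was also run on simulated data with the same spread set for every gene. These data need not have such a spread, so no error rate is drawn from that run. Alternatives were other pseudocounts, filters and scalings, all 14 libraries, the compared stages alone, the replicate block, each library left out, and edgeR 4.0.16 and DESeq2 1.42.0 on the recovered reads. Promoters, positions and symbols came from RefSeq, build TAIR10.1, matched by locus. Loci outside the table, among them 6 seed coat markers, were not analysed here, and 1 aquaporin symbol, 6 lipid droplet symbols, 1 seed coat and 1 endosperm symbol did not match their locus.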

Additional observations from a re-analysis of the deposited data

How the results depend on the processing

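The 15 named changes had been picked as the largest called ones without overlap. Under 25 settings, 370 of their 375 values kept direction and call. The other 5 were the bent against torpedo changes in a fit of those stages alone, with limma adjusted p of 0.0585 to 0.107. That fit called 0 members higher and 0 lower in bent embryos (limma, with 85 and 3 at an unadjusted p under 0.05), in place of 91 and 1, and it has fewer libraries to estimate the spread. Members lower in bent embryos numbered 4 with a pseudocount of 16 (beside 25.1% of all genes) and 3 with all 14 libraries (22.4%). They numbered 0 without a filter (12.5%), with equal totals (19.6%), TMM (9.87%), median centring (10%), quantile normalization (11.4%), edgeR (9.18%) and DESeq2 (9.85%), where edgeR gave 2 and DESeq2 1 at an unadjusted p under 0.05. Leaving out 1 library gave 0 to 5, with 5 without bent replicate 1 (25.9%). Members higher in octant embryos numbered 36 (beside 45.6% of all genes), and 23 with TMM (28.6%), 15 with median centring (22.0%), 22 with quantile normalization (27.5%) and 14 with DESeq2 (20.9%), so calls over all genes went down as well. Members lower in octant embryos numbered 61 (13.5%), and 102 with median centring (29.6%). The cause was not tested.

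With the replicate number as a block, 37 members were higher and 61 lower in octant (beside 45.5% and 13.5% of all genes), 33 and 46 in torpedo (30.0% and 24.0%), and 94 and 0 in bent embryos (5.61% and 23.5%). Deviations of same-numbered libraries from their stage means correlated between -0.11 and 0.30 over 15 pairs of stages, 3 of them over 0.1. These correlations cannot decide whether the numbers pair the samples. The 218 members became 359 at a ratio of 5, 138 at a ratio of 20 and 338 with TMM. Leaving out a library gave 199 to 228, an alternative chosen after seeing the data for the 12 earlier libraries. Motif shares over 150 bases were lower in members and other genes alike. Values below about 3 reads, 1.95 to 9.87 by library, cannot be told from 0.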
